A study of Mus musculus with 24 samples.

Results

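The expression of the 8 subunits of the chaperonin TRiC, also called CCT, was examined by RNA sequencing in murine CD4+ T cells at rest, during Th0, Th1 and Th2 activation, and after actinomycin. The members are the rows of the expression table for Tcp1, Cct2, Cct3, Cct4, Cct5, Cct6a, Cct7 and Cct8, 8 of 22009 named genes, and they were chosen by name and not by any measured value. All 8 passed the filter of a mean of at least 1 RPKM in every comparison. RPKM is a read count scaled to the length of the transcript and the depth of the library.

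CD4+ cells came from the spleen of wildtype (WT) C57BL/6 mice, pooled from several animals, and were purified by negative selection on magnetic beads. The time course had 20 libraries: 2 of resting, unstimulated cells (Rep1 and Rep2) and 18 of cultures, namely 1 per skewing condition (Th0, Th1, Th2) at 4, 8, 12, 16, 20 and 24 h. All cultures received anti-CD3 on the plate and soluble anti-CD28. Th0 cultures had nothing more, Th1 cultures were given IL-12 and an antibody to IL-4, and Th2 cultures IL-4 with antibodies to IL-12 and IFN-γ, the cytokines being recombinant. In the other 4 libraries, cells stimulated for 16 h were kept with actinomycin, which blocks transcription, for 0, 1, 2 or 4 h; their skewing condition is not given. All groups share strain, genotype and tissue. Cells of 1 pool, cultured and sequenced once per condition and time, are not biological replicates of a condition. The p-values of the time course thus measure the spread between these cultures. Resting and cultured libraries of the time course carry different tags in their titles, and what the tags stand for is not stated. Activation and a difference marked by the tags thus cannot be told apart. The actinomycin libraries carry no such tag.

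TRiC is a double ring of cytosolic proteins in which each ring holds a single copy of every subunit, and it closes over an unfolded protein with the energy of ATP. It folds actin and the tubulins, and also WD40-repeat and other proteins that do not reach their shape alone, such as Cdc20 and Raptor. The subunits Tcp1, Cct2, Cct4 and Cct5 lie side by side and form the part of the ring that uses ATP more strongly, with Cct3, Cct6a, Cct7 and Cct8 opposite. In resting T cells translation is low, and after ligation of the T cell receptor and CD28 the cells grow and prepare to divide.

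The depth, recovered from the steps of the RPKM values, was between 17512385 and 33017133 mapped reads in the time course and between 18052931 and 25735543 after actinomycin. The T cell markers were present in every library, with a summed level of 1706 to 1718 RPKM at rest and 1039 to 1215 RPKM in the cultures. Markers of macrophages, B cells and NK cells had their highest sums at rest. All 8 macrophage markers were lower at 24 h than at rest, with sums of 525 to 544 RPKM at rest, 30.8 to 57.5 RPKM at 4 h and 5.06 to 6.56 RPKM at 24 h, and none was at 0 in every library of a group. The haemoglobin genes took 6.25 to 6.86% of all RPKM at rest, 4.99 to 7.36% at 4 h and 0.0233 to 0.0333% at 24 h. In such bulk samples, fewer cells of a type and less RNA per cell cannot be told apart. Of the cultures, Th0 at 8 h was behind the other cultures of its time and Th2 at 4 h ahead of them, and the Th2 library at 24 h and the actinomycin library at 2 h had other ratios among the subunits than their neighbours. Several results that rest on them are also given without them.

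The genes of the 8 subunits are spread over 8 chromosomes. On GRCm38, with the annotation GENCODE M21, Tcp1 (ENSMUSG00000068039.13) lies on chromosome 17 from 12915701 to 12925067, Cct2 (ENSMUSG00000034024.8) on chromosome 10 from 117051001 to 117063814 and Cct3 (ENSMUSG00000001416.13) on chromosome 3 from 88297116 to 88321767. Cct4 (ENSMUSG00000007739.10) lies on chromosome 11 from 22990519 to 23003780, and Cct5 (ENSMUSG00000022234.15) on chromosome 15 from 31590800 to 31601804. Cct6a (ENSMUSG00000029447.11) lies on chromosome 5 from 129786998 to 129846371, Cct7 (ENSMUSG00000030007.8) on chromosome 6 from 85451514 to 85468475 and Cct8 (ENSMUSG00000025613.13) on chromosome 16 from 87483326 to 87495873. No pair of subunits shares a locus. Of the 50-base windows of their transcripts, 0 to 4.37% also occur in transcripts of other genes, with the highest share in Cct6a and 2.07% in Tcp1. Genes on the opposite strand overlap Tcp1 (Acat3 and Mrpl18), Cct6a (Psph), Cct7 (Pradc1) and Cct8 (Usp16), and reads of both strands cannot be told apart, since strand is not stated.

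The sequences before the transcription start are shown for the subunits with the largest rise (Cct6a and Cct3), for Cct2, which rose less, and for Cct8, the most abundant. They were taken from RefSeq promoters of build GRCm38.p6, which matched 7 of 8 subunits by symbol, all but Cct4. Each run holds the 250 bases before the first listed start of the gene, 5′ to 3′ on the gene's strand. The positions are chr5:129787106-129787355 (+) for Cct6a, chr3:88296885-88297134 (+) for Cct3, chr10:117063853-117064102 (-) for Cct2 and chr16:87495870-87496119 (-) for Cct8. Capitals mark matches to the motifs searched on both strands:
Cct6a: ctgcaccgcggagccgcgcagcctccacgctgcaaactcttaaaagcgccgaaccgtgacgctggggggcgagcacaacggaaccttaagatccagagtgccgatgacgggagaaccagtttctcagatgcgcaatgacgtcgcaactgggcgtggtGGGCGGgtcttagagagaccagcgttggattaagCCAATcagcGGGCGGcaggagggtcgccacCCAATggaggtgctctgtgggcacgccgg
Cct3: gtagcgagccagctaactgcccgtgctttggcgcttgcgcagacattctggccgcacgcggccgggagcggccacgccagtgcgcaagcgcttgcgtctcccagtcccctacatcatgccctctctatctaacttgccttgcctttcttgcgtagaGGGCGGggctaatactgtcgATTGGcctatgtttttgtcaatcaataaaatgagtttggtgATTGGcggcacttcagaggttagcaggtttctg
Cct2: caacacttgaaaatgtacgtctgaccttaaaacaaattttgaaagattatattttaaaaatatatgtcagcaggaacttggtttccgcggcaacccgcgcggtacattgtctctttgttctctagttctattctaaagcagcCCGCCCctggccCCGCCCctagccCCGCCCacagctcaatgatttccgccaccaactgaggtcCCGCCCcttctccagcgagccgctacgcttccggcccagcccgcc
Cct8: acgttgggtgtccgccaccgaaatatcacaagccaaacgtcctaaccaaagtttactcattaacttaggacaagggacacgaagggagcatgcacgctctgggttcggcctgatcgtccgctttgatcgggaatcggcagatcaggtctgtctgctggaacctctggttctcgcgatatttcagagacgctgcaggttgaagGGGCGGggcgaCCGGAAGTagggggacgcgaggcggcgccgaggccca

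The GC box GGGCGG was found in 7 of 7 subunit promoters, against 32.9% of 27025 promoters of the same length, and it is the motif that Cct6a, Cct3, Cct2 and Cct8 have in common. The CCAAT box CCAAT was found in 4 of 7 (Tcp1, Cct3, Cct6a and Cct7), against 34.5% of all promoters. The ETS site CCGGAAGT was found in 1 of 7, Cct8, against 2.93%. The E-box CACGTG, bound by Myc among others, was found in 0 of 7, against 6.05%. The core of the heat shock element, GAANNTTC, was found in 0 of 7, against 6.78%, although the second listed start of Cct2 has it. No matches overlapped each other. A match is only a run of letters, and a missing match concerns these windows alone.

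In resting cells, the 8 transcripts together had 1249 and 1257 RPKM in the 2 libraries, 0.206 and 0.208% of all RPKM. Cct8, the theta subunit, and Cct5, the epsilon subunit, were the most abundant per length, with 228 ± 2.52 and 226 ± 8.83 RPKM (SD, n = 2). Cct2 had 171 ± 2.14 RPKM, Tcp1 167 ± 6.13 RPKM and Cct4 167 ± 0.606 RPKM (SD, n = 2). Cct3 had 127 ± 3.35 RPKM, Cct7 86.2 ± 2.59 RPKM and Cct6a 81.6 ± 2.3 RPKM (SD, n = 2). The transcripts were thus unequal in level, although the assembled ring holds the proteins in equal number. Over the 20 libraries of the time course the order by mean level was Cct8, Cct5, Tcp1, Cct3, Cct2, Cct4, Cct6a and Cct7. Neighbours in this order were not all separate: Tcp1 was above Cct3 in 9 of 20 libraries, Cct3 above Cct2 in 14, Cct8 above Cct5 in 15 and Cct6a above Cct7 in 16. Cct5 was above Tcp1, and Cct4 above Cct6a, in 20 of 20.

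On activation, all 8 subunits rose. None was called risen at 4 h, all were higher at 8 h than at 4 h, and from 12 h on all 8 were at least 2-fold above resting cells. At 24 h the summed level of the 8 was 3626, 3634 and 3971 RPKM in Th0, Th1 and Th2, which made up 0.599, 0.608 and 0.619% of all RPKM. Every culture from 8 h on was above both resting libraries for all 8 subunits, and the share of all genes for which this held was not counted.

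**Figure D1:**
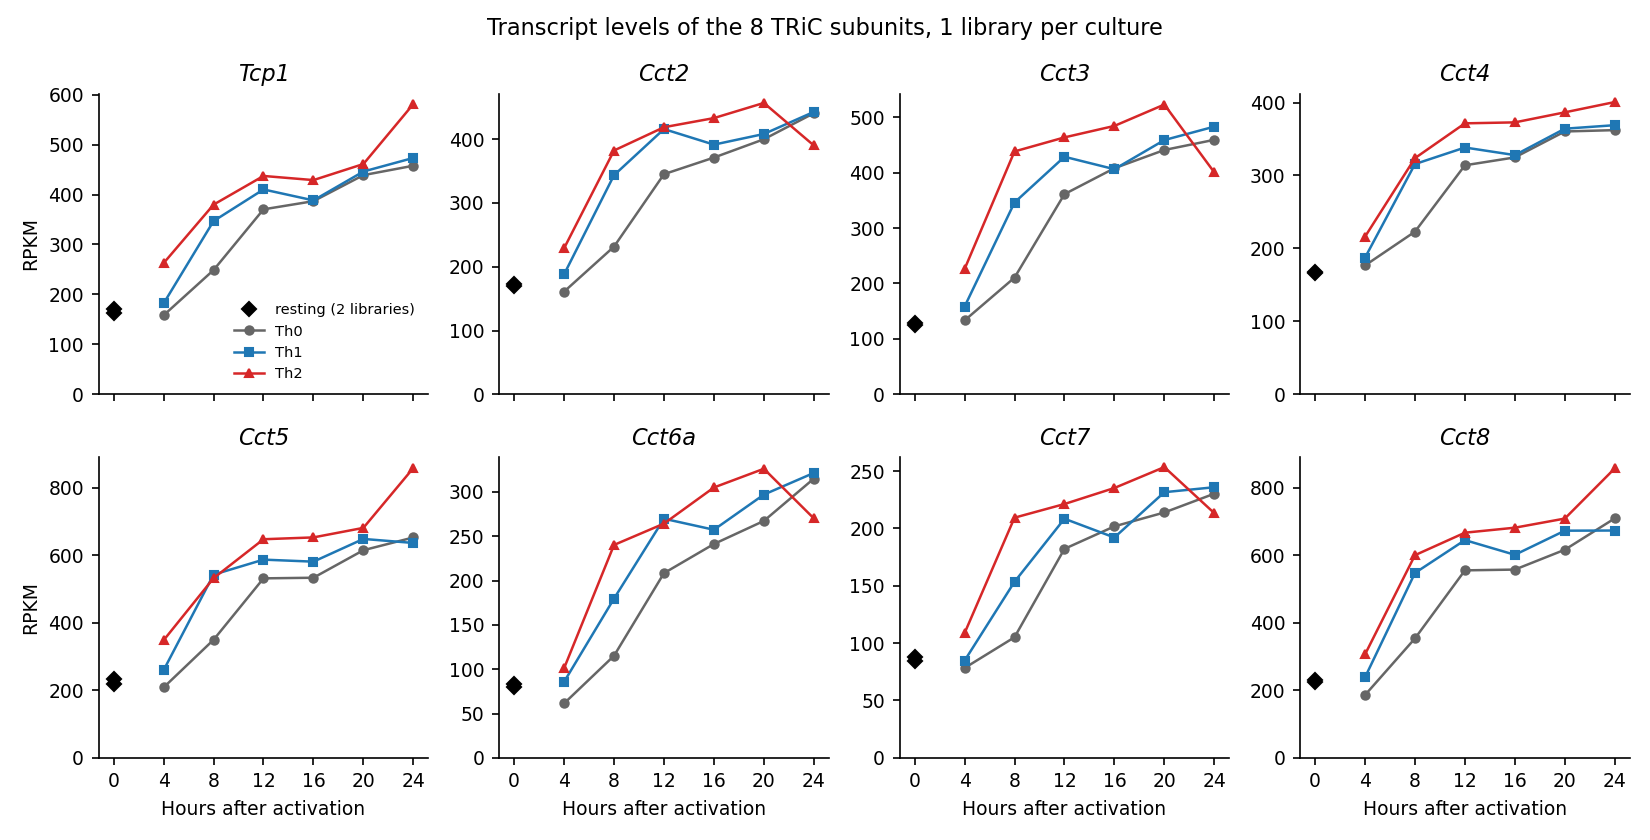
RPKM of each TRiC subunit (y axis, from 0) against hours after activation (x axis); black diamonds are the 2 resting libraries at 0 h, and each coloured point is 1 library of Th0, Th1 or Th2, joined by lines. All 8 subunits climbed mainly between 4 and 12 h, Th0 last, and at 24 h the Th2 library had higher Tcp1, Cct4, Cct5 and Cct8 but lower Cct2, Cct3, Cct6a and Cct7 than at 20 h.

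On the side of the ring that uses ATP more strongly, Cct4, the delta subunit, had the smallest rise. It had 167 and 166 RPKM at rest, and at 4 h its level was 177 RPKM (Th0), 187 RPKM (Th1) and 216 RPKM (Th2). At 12 h it had 314, 338 and 372 RPKM, and at 24 h 362, 369 and 401 RPKM in Th0, Th1 and Th2. All cultures of Cct4 were above both resting libraries, from 4 h on. Its log2 change at 24 h, on the log2(RPKM + 0.5) scale, was 1.17 (95% interval 0.88 to 1.47, adjusted p = 2.9e-06, limma with Benjamini-Hochberg adjustment over 10897 genes). Cct2, the beta subunit, had 6684 reads at rest in Rep1, or 172 RPKM with a counting interval (95%, exact Poisson) of 168 to 177, and 7824 reads in Rep2, or 169 RPKM (166 to 173). It rose to 441, 443 and 390 RPKM in Th0, Th1 and Th2 at 24 h. Such an interval covers counting error only, and the 3 cultures at 24 h lay further apart than it. The log2 change of Cct2 at 24 h was 1.31 (0.93 to 1.68, adjusted p = 1.06e-05, limma). Tcp1, the alpha subunit and the gene that gave the family its name, rose from 172 and 163 RPKM to 458, 473 and 581 RPKM, a log2 change of 1.58 (1.18 to 1.98, adjusted p = 2.66e-06, limma). Cct5 rose from 220 and 232 RPKM to 652, 636 and 858 RPKM, a log2 change of 1.65 (1.21 to 2.08, adjusted p = 4.23e-06, limma). For all 4 the 24 h libraries lay above both resting libraries. The share of all genes that did so was not counted, and at 24 h 3447 of 10897 genes rose at an adjusted p under 0.05 (limma).

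On the opposite side of the ring, Cct6a, the zeta subunit, had the largest rise of the 8. At rest it had 2630 reads in Rep1, or 83.2 RPKM (80.1 to 86.5), and 3011 reads in Rep2, or 80.0 RPKM (77.2 to 82.9). At 4 h it was lower than that in Th0, with 61.4 RPKM (2390 reads, 58.9 to 63.9), against 85.7 and 101 RPKM in Th1 and Th2. Its transcripts reached 115, 180 and 240 RPKM at 8 h in the same order. At 12 h the values of Cct6a were 208, 270 and 264 RPKM, and at 24 h they were 315, 321 and 270 RPKM. The spread between conditions was thus greatest at 8 h and had narrowed by 24 h. Th2 was then lowest, in the library whose subunit ratios stood apart. The log2 change of Cct6a at 24 h was 1.88 (1.37 to 2.39, adjusted p = 5.56e-06, limma), and it ranked 278th of 10897 genes, counted from the largest rise down. Cct3, the gamma subunit, rose from 124 and 129 RPKM to 459, 483 and 401 RPKM, a log2 change of 1.81 (1.30 to 2.32, adjusted p = 8.18e-06, limma). Cct8 rose from 226 and 229 RPKM to 709, 673 and 857 RPKM, a log2 change of 1.70 (1.26 to 2.14, adjusted p = 3.38e-06, limma). Cct7, the eta subunit, rose from 84.4 and 88.0 RPKM to 230, 236 and 213 RPKM, a log2 change of 1.39 (0.95 to 1.82, adjusted p = 2.28e-05, limma). The intervals of the 8 subunits overlapped, and whether one subunit rose more than another was not tested.

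Calling a gene risen where it was 2-fold or more above rest with an adjusted p below 0.05 (limma), 0 of 8 subunits had risen at 4 h, against 2.61% of all genes tested. The median of the 8 was 0.18 (log2), from -0.01 for Cct6a to 0.41 for Cct3, with adjusted p between 0.213 and 0.981, and 0 of 8 had an unadjusted p under 0.05. Without the Th2 library at 4 h, a choice made after seeing the data, the median at 4 h was 0.02. At 8 h, 4 of 8 had risen at least 2-fold (Cct3, Cct5, Cct6a and Cct8), against 6.42% of all genes. The other four had log2 changes of 0.76 to 0.93 with adjusted p between 0.000333 and 0.00412. The number at 8 h was 7 without the Th0 library at 8 h, a choice made after seeing the data. It was 1 without the 6 Th2 cultures and 1 with quantile normalization. At 12 h 8 of 8 had risen, against 10.7% of all genes, and at 16 h 8 of 8, against 11.2%. The same held at 20 h, against 12.9%, and at 24 h, against 12.7%. The median log2 change of the 8 was 0.99 at 8 h, 1.32 at 12 h, 1.33 at 16 h, 1.47 at 20 h and 1.61 at 24 h, when the median of all genes was -0.04. With the haemoglobin genes left out of the total, the median at 24 h was 1.497 and 8 of 8 had risen, and at 12 and 16 h Cct4 fell short of 2-fold (0.95 and 0.96, log2). The summed macrophage markers had 525 to 544 RPKM at rest and 30.8 to 57.5 RPKM at 4 h, and their part in the result was not tested.

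**Figure D2:**
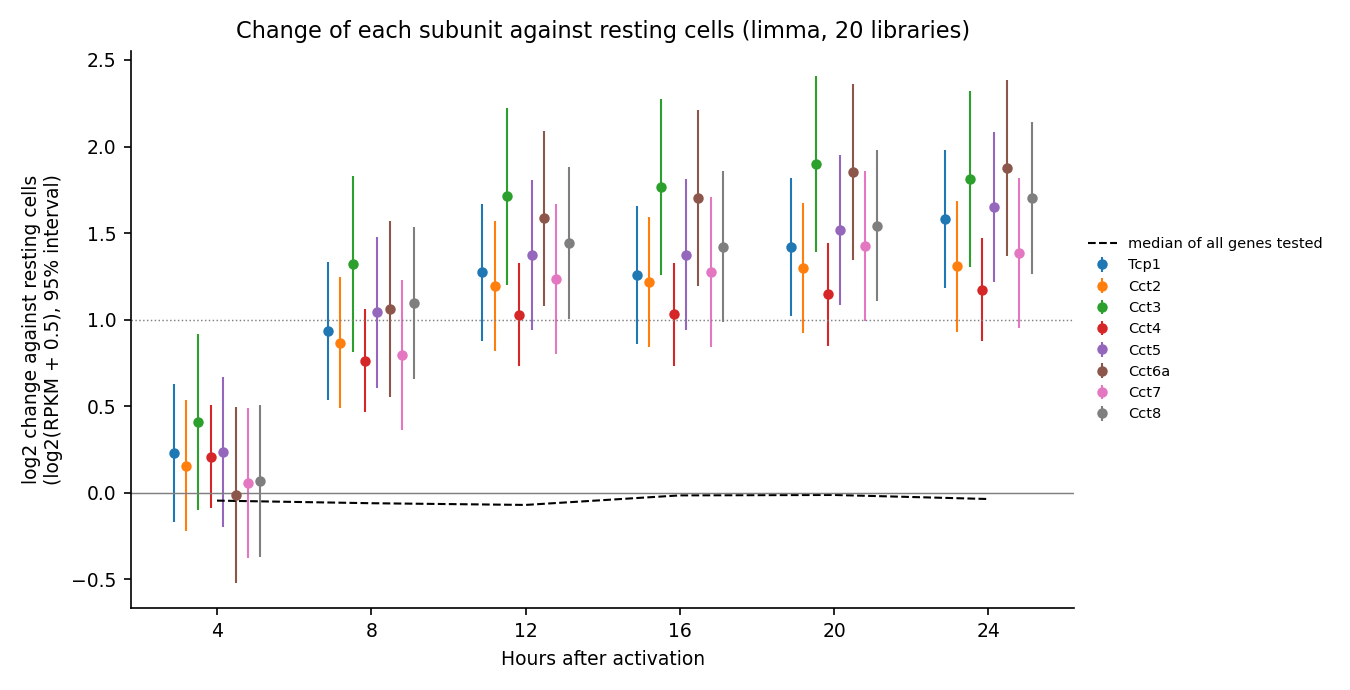
log2 change of each subunit against resting cells (y axis, log2(RPKM + 0.5)) at each time point (x axis, hours, points set side by side), with 95% intervals from limma over 20 libraries; the dotted line marks 2-fold and the dashed line the median of all genes tested. The 8 subunits move from near 0 at 4 h to between 1.17 and 1.88 at 24 h, while the median of all genes stays between -0.07 and -0.01.

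The largest step of the rise was between 4 and 8 h. In this step 8 of 8 subunits rose at an adjusted p under 0.05 (limma), against 15.8% of all genes, with log2 changes of 0.56 for Cct4 to 1.07 for Cct6a and adjusted p between 0.0018 and 0.00875. Cct8 rose by 1.03 in this step (adjusted p = 0.0018, limma) and passed Cct5 as the most abundant subunit in all 3 conditions. Without the Th1 cultures 0 of 8 passed the threshold (adjusted p 0.129 to 0.225), with changes of 0.46 to 1.07, and the number of all genes that rose went from 1722 to 12. The median step of the 8 was 0.77, and it was 1.00 without the Th0 library at 8 h and 0.96 without the Th2 library at 4 h. From 8 to 12 h, 0 of 8 subunits passed, against 0.340% of all genes, with log2 changes of 0.26 to 0.53, and 2 of 8 (Cct6a and Cct7) had an unadjusted p under 0.05. The median of this step was 0.34, and 0.12 without the Th0 library at 8 h. For the later steps the number was 0 of 8 with limma, and 0 of 8 had an unadjusted p under 0.05: from 12 to 16 h (0.0734% of all genes), from 16 to 20 h (0.505%) and from 20 to 24 h (0.697%). The medians of these steps were 0.01, 0.14 and 0.03 (log2).

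The time at which the rise took place differed between the cultures. As a share of its own rise from rest to the mean of the 24 h cultures, on the log2 scale, the median subunit was at -6.8% in Th0, 9.1% in Th1 and 32.0% in Th2 at 4 h. At 8 h it was at 35.9% in Th0, 75.4% in Th1 and 82.3% in Th2, and at 12 h at 76.4, 89.8 and 94.9%. The other genes had the same order of conditions: over 10889 genes without the subunits, the library had gone 25.8% (Th0), 31.4% (Th1) and 39.3% (Th2) of the way from rest to 24 h at 4 h, and 43.6, 62.5 and 75.0% at 8 h. The share for the other genes gives more weight to genes with larger changes and includes genes that fell. It is thus a different measure from that of the subunits, and only the order of conditions was compared. These are single libraries, and the shares carry no test.

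Between skewing conditions, the subunits were higher in Th2 than in Th0, by less than 2-fold. With the time point as a factor over the 18 cultures, 8 of 8 were higher in Th2 than in Th0 at an adjusted p under 0.05 (limma), against 12.9% of 10737 genes. The differences (log2) were 0.25 for Cct4, 0.29 for Cct2, 0.35 for Cct7 and 0.36 for Tcp1. They were 0.41 for Cct3 and for Cct5, and 0.42 for Cct6a and for Cct8, a factor of 1.34. Adjusted p lay between 0.00301 for Cct8 and 0.0276 for Cct2 (limma), and the median of all genes was 0.00. Between Th2 and Th1, 0 of 8 passed, against 3.49% of all genes, with differences of 0.10 to 0.21 (95% intervals from -0.12 to 0.45, limma) and 3 of 8 with an unadjusted p under 0.05. Between Th1 and Th0, 0 of 8 passed, against 0.522% of all genes, with differences of 0.12 to 0.29 (-0.06 to 0.54), and again 3 of 8 had an unadjusted p under 0.05. The median of the latter was 0.20, and 0.11 without the Th0 library at 8 h. The subunits thus lay in the order Th0, Th1 and Th2, and neighbours in this order did not pass the test.

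The difference between Th2 and Th0 was largest at the early time points, although its change with time was not tested. At 4 h all 8 subunits were higher in Th2, by a median of 0.72 (log2), for example 348 RPKM against 208 RPKM for Cct5 and 306 RPKM against 186 RPKM for Cct8. At 8 h all 8 were higher by a median of 0.74, up to 1.06 for Cct6a. The median difference was then 0.28 at 12 h, 0.23 at 16 h and 0.20 at 20 h, with 8 of 8 higher in Th2 each time. At 24 h it was 0.02, with 4 of 8 higher. This value rests on the Th2 library whose subunit ratios stood apart, and without it no Th2 value at 24 h remains. Over these time points the median difference of all genes lay between -0.08 and 0.04, with an SD of 0.39 to 0.68. The share of all genes higher in Th2 at each time was not counted. Without the 4 and 8 h time points, a choice made after seeing the data, 2 of 8 passed (Cct5 with 0.28, adjusted p = 0.0248, and Cct8 with 0.26, adjusted p = 0.0334, limma), and the median difference was 0.18. The number was 4 without the 4 h, the 8 h or the 12 h time point. Without the Th0 library at 8 h the median difference was 0.30 and 7 of 8 passed, with Cct2 at an adjusted p of 0.0773 (limma). Without the Th2 library at 4 h it was 0.33 and 6 of 8 passed, with Cct2 at 0.0696 and Cct3 at 0.054. Il2ra, the alpha chain of the IL-2 receptor, and Myc, a driver of T cell growth, were also highest in Th2 at 4 h, with 118 RPKM against 50.5 RPKM in Th0 for Il2ra and 157 against 52.2 RPKM for Myc.

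**Figure D3:**
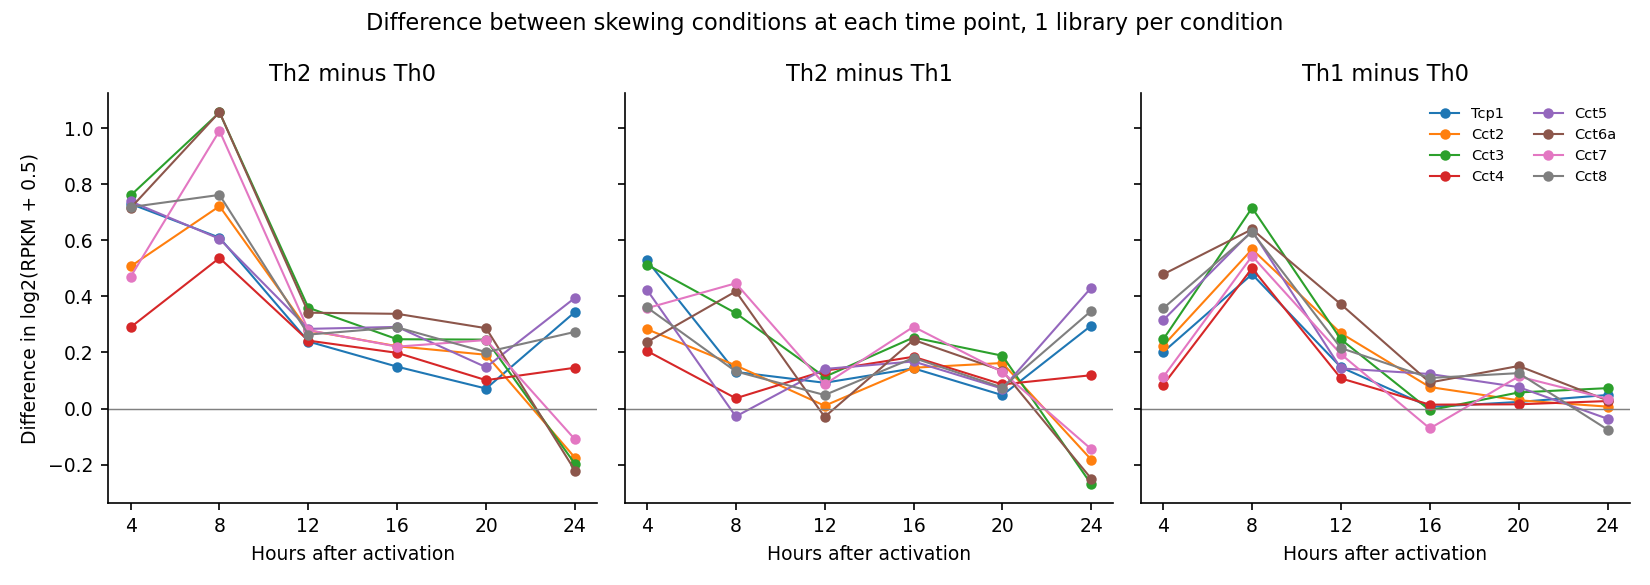
Difference in log2(RPKM + 0.5) between skewing conditions (y axis) at each time point (x axis, hours) for the 8 subunits, 1 library per condition and time; points above 0 are higher in the first-named condition. The gap between Th2 and Th0 shrinks from medians of 0.72 at 4 h and 0.74 at 8 h to 0.20 at 20 h, and at 24 h the subunits split into 4 above and 4 below 0. The Th2 library at 24 h is that whose subunit ratios stood apart from the other cultures.

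The ratios among the subunits shifted during activation. Cct4 made up 13.3% of the summed RPKM of the 8 at rest and 10.0, 10.1 and 10.1% in Th0, Th1 and Th2 at 24 h, outside the range of the 2 resting libraries (13.2 to 13.4%). Cct2 went from 13.6% to 12.2, 12.2 and 9.83%. Cct3 went the other way, from 10.1% at rest to 12.7 and 13.3% in Th0 and Th1 at 24 h, and Cct6a went from 6.51% to 8.68 and 8.84%, but in Th2 they had 10.1 and 6.8%. Cct4 had its highest share of all, 15.2%, in Th0 at 4 h. Tcp1 (13.3% at rest, 12.6% in Th0 and 13.0% in Th1 at 24 h), Cct5 (18.02, 17.99 and 17.5%), Cct7 (6.88, 6.35 and 6.49%) and Cct8 (18.2, 19.5 and 18.5%) moved less. RPKM shares depend on the length each transcript was divided by, so a share shows a shift between samples and not the ratio of the proteins.

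In the Th2 library at 24 h the shares stood apart from all other cultures. Cct5 had 21.6% and Cct8 21.6%, against at most 19.5 and 19.7% in the other 17 cultures, while Cct3 had 10.1%, Cct2 9.83% and Cct7 5.37%, below all of them. Against the mean of Th0 and Th1 at 24 h, 4 of 8 subunits were higher in this library (Tcp1 by 0.32, Cct4 by 0.13, Cct5 by 0.41 and Cct8 by 0.31, log2) and the other four lower. The actinomycin library at 2 h had a shift of the same kind against its neighbours at 1 and 4 h, with Cct5 higher by 0.48 and Cct8 by 0.31, and Cct6a lower (-0.24). In both libraries the deviation of all genes went with the GC content of their longest transcript (Spearman rho -0.40 and -0.46 over 8285 genes, which share the library), against 0.14 for Th1 and Th0 at 24 h. The negative sign means that genes with more GC tended to be lower in these 2 libraries. For Cct6a and Cct7 the longest transcript has 2454 and 3884 bases, while their RPKM was divided by 1599 and 2452 bases. The GC content is 41.1% for Tcp1, 43.3% for Cct8, 44.9% for Cct7, 45.1% for Cct4 and 46.7% for Cct3. It is 47.2% for Cct2, 47.4% for Cct6a and 50.2% for Cct5, with a median of 49.3% over all these genes. Cct5, with the highest GC content of the 8, had the largest upward shift in both libraries, in the direction opposite to the trend over all genes. Tcp1 and Cct8, with the lowest GC content, were also higher in both. The part of GC content in these shifts was not tested. Without the Th2 library at 24 h, a choice made after seeing the data, the median rise of the 8 at 24 h was 1.49 and 8 of 8 had risen.

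**Figure D4:**
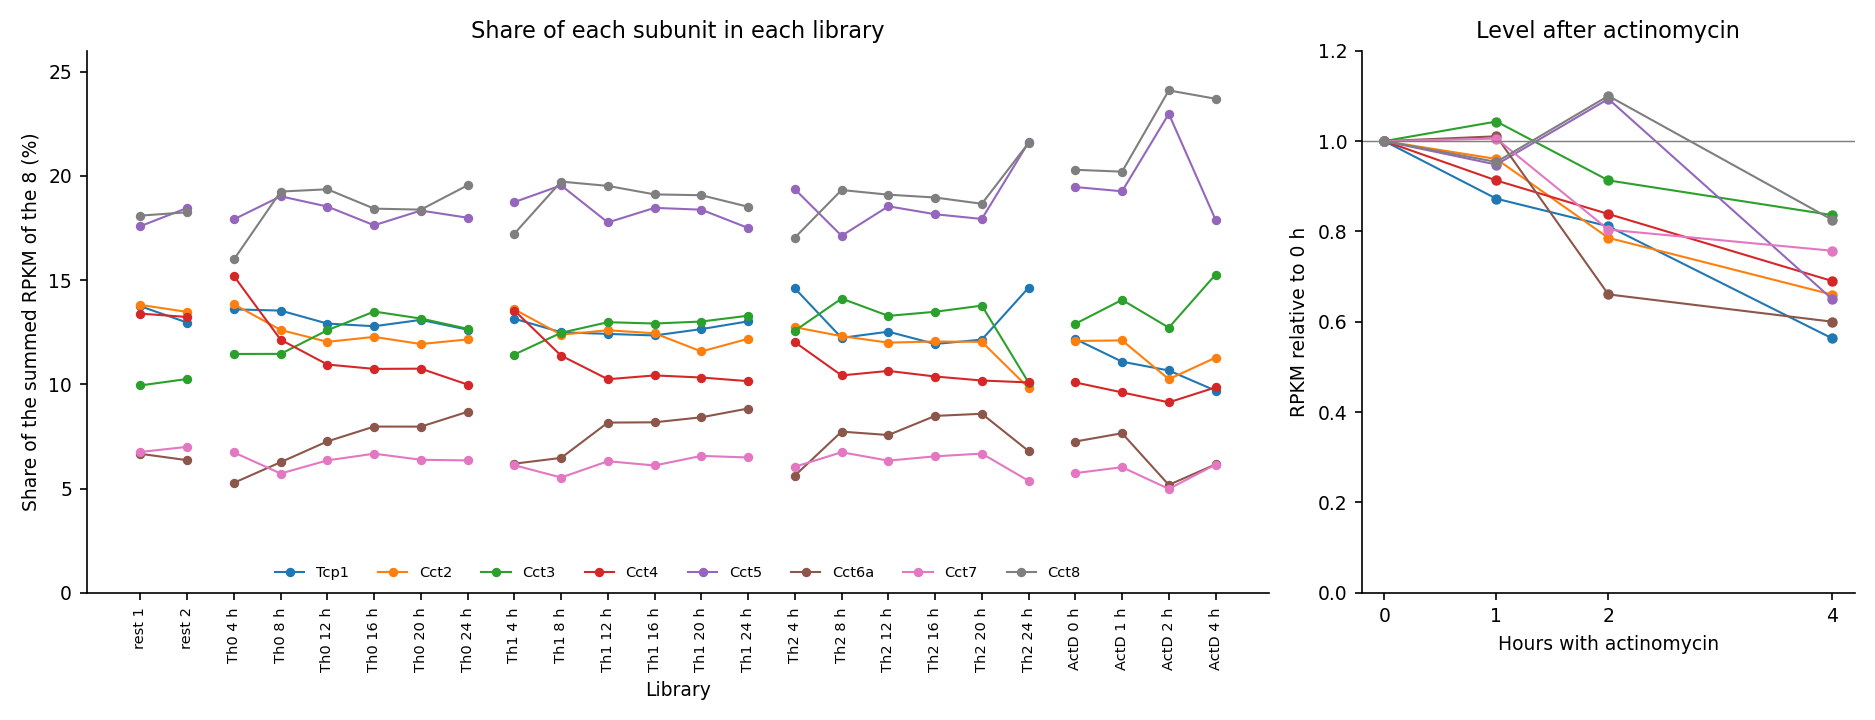
Left, share of each subunit in the summed RPKM of the 8 (y axis, %) in each of the 24 libraries (x axis, ActD for actinomycin), with lines joining libraries of a series; right, RPKM relative to the 0 h library (y axis) against hours with actinomycin (x axis), 1 library per time. Cct4 falls and Cct3 and Cct6a rise in share from rest to 24 h, the Th2 library at 24 h and the actinomycin library at 2 h stand apart, and at 4 h with actinomycin all 8 subunits are between 0.563 and 0.836 of their level at 0 h.

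After actinomycin, which shows how long transcripts last once transcription is blocked, all 8 subunits were lower at 4 h than at 0 h, relative to the other transcripts of the library. The share of all genes that were lower at 4 h was not counted. Tcp1 had 470, 410, 382 and 265 RPKM at 0, 1, 2 and 4 h, the largest fall of the 8, and was 43.7% lower at 4 h. Cct6a had 280, 283, 185 and 168 RPKM and was 40.0% lower, and Cct2 had 467, 448, 367 and 308 RPKM and was 34.0% lower. Cct5 was 35.0% lower at 4 h (489 RPKM), although its value at 2 h (822 RPKM) was above that at 0 h (752 RPKM). Cct4 was 31.0% and Cct7 24.3% lower. Cct8, with 784, 748, 862 and 647 RPKM, was 17.4% lower, and Cct3, with 499, 520, 455 and 417 RPKM, was 16.4% lower. The part of the transcript left at 4 h ranged from 0.563 of the start for Tcp1 to 0.836 for Cct3. This rests on 1 library per time, and whether one subunit fell more than another was not tested.

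As a slope of log2(RPKM + 0.5) per hour over the 4 libraries, 3 of 8 subunits fell at an adjusted p under 0.05 (limma), against 12.0% of 10571 genes. These were Cct6a with -0.21 (95% interval -0.32 to -0.09, adjusted p = 0.0043, limma), Tcp1 with -0.20 (-0.32 to -0.09, adjusted p = 0.00734, limma) and Cct2 with -0.16 (-0.28 to -0.04, adjusted p = 0.046, limma). The others had -0.15 for Cct5, -0.13 for Cct4, -0.11 for Cct7, -0.08 for Cct3 and -0.06 for Cct8, with adjusted p between 0.0908 and 0.555. With only 4 libraries, the variance behind these intervals and p-values came mostly from other genes of like level, through the variance prior of limma. The median of the 8 was -0.14 and that of all genes 0.00, and the lowest 10% of all genes had slopes of -0.20 and below. The number of subunits that fell was 5 without the 2 h library, with Cct4 (adjusted p = 0.0244) and Cct5 (adjusted p = 0.0188, limma) added, and 0 without the 0 h, the 1 h or the 4 h library, each of which leaves 3 libraries. RPKM is relative, so a slope of 0 marks a transcript that lasted like the bulk of the RNA, not one that did not decay.

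The partners of TRiC were counted from lists of known co-chaperones and clients, chosen by function. Of the 6 subunits of prefoldin, which hands actin and tubulin chains to TRiC, 3 rose at least 2-fold by 24 h (limma), against 12.7% of all genes. Pfdn4 had the largest rise, from 17.6 to 63.8 RPKM (log2 change 1.81, adjusted p = 4.36e-06, limma). Pfdn2 rose by 1.11 and Pfdn1 by 1.06, Pfdn6 had 0.95 and Vbp1 0.48, and Pfdn5 had -0.34 (adjusted p = 0.0853). The median of prefoldin was 1.00, against 1.61 for the 8 subunits of TRiC. From 4 to 8 h, 4 of 6 rose at an adjusted p under 0.05, against 15.8% of all genes, a share that nearly vanished without the Th1 cultures (1722 genes to 12).

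The phosducin-like co-factors bind TRiC and adjust its cycle. Of 4, 3 were expressed above the filter and none was called risen at 24 h, against 12.7% of all genes. Pdcl3 (mean 17.1 at rest and 34.6 RPKM at 24 h) and Txndc9 (33.0 and 66.2 RPKM) lay at the threshold, since their means differed by just over 2-fold while the fitted changes on the log2(RPKM + 0.5) scale were just below it, 1.00 (0.996) for Pdcl3 and 0.99 for Txndc9. The third was Pdcl, with a change of -0.13, and Pdcl2 was listed at 0 in the time course. After actinomycin all 3 fell, against 12.0% of all genes (slopes of -0.26 for Pdcl, -0.26 for Pdcl3 and -0.28 for Txndc9 per hour, adjusted p of at most 0.00108, limma). Of the 5 relatives of the chaperonin family, Bbs12, a chaperonin-like protein of the cilium's BBSome pathway, rose from 2.13 to 11.3 RPKM (log2 change 2.16, adjusted p = 8.79e-09, limma), and Mkks had 0.72. Cct6b, the close paralog of Cct6a that is known from testis, had at most 0.2 RPKM in the cultures and did not pass the filter, nor did Bbs10 and Cct8l1 in the time course. The mitochondrial chaperonin Hspd1 and its co-chaperonin Hspe1 both rose at least 2-fold by 24 h, against 12.7% of all genes. Hspd1 went from 153 to 785 RPKM (log2 change 2.35, adjusted p = 9.23e-06, limma) and Hspe1 from 136 to 465 RPKM (1.77, adjusted p = 2.89e-05, limma). Both also rose from 4 to 8 h (1.55 and 1.40), against 15.8% of all genes. Both were higher in Th2 than in Th0 (0.53 and 0.53), as the subunits of TRiC were, against 12.9% of all genes. Of the other partners and clients fewer were called higher in Th2. These were 1 of 6 prefoldin subunits, 3 of 11 tubulins and 2 of 12 other clients, while 3 tubulins and 2 other clients were lower. Of the phosducin-like co-factors, chaperonin relatives, actins and tubulin cofactors, 0 were called in either direction.

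Among the clients, Actb and Actg1, the cytoplasmic actins and the most abundant clients, had log2 changes of 0.50 (1758 to 2534 RPKM) and 0.63 (1103 to 1710 RPKM) at 24 h, below 2-fold, and after actinomycin they fell by 0.40 and 0.29 per hour (adjusted p = 2.51e-06 and 0.000351, limma). Of 14 tubulin genes 11 passed the filter, and 4 rose at least 2-fold by 24 h, against 12.7% of all genes: Tubb6 (1.36, from 1.85 to 5.51 RPKM), Tuba1b (1.33, from 368 to 924 RPKM), Tuba1c (1.11) and Tubb5 (1.04, from 339 to 701 RPKM). None fell 2-fold, against 1891 of 10897 genes, and the lowest was Tubb2a with -0.75 (28.8 to 17.0 RPKM, adjusted p = 0.00614, limma). At 4 h, Tuba1b and Tubb5 had been at -0.43 and -0.51, so these tubulins had values below rest before they rose. Of the 5 tubulin cofactors, which act on tubulin after TRiC, 0 rose 2-fold, against 12.7% of all genes. Their changes ran from 0.00 for Tbce to 0.87 for Tbcb, with Tbcd at 0.15, Tbcc at 0.36 and Tbca at 0.47. Of 12 other reported clients 0 rose and 1 fell 2-fold at 24 h. Among all genes 12.7% rose and 1891 of 10897 fell 2-fold. The client that fell was Plk1, a mitotic kinase, from 13.4 to 3.83 RPKM (log2 change -1.69, adjusted p = 2.05e-07, limma). Cdc20, an activator of the anaphase-promoting complex, had 18.6 RPKM in resting and 14.9 RPKM in 24 h cells (-0.31), and Rptor, the scaffold of mTORC1, 14.4 and 16.5 RPKM (0.18). The medians at 24 h were 0.57 for the actins, 0.32 for the tubulins, 0.36 for the tubulin cofactors and 0.23 for the other clients.

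**Figure D5:**
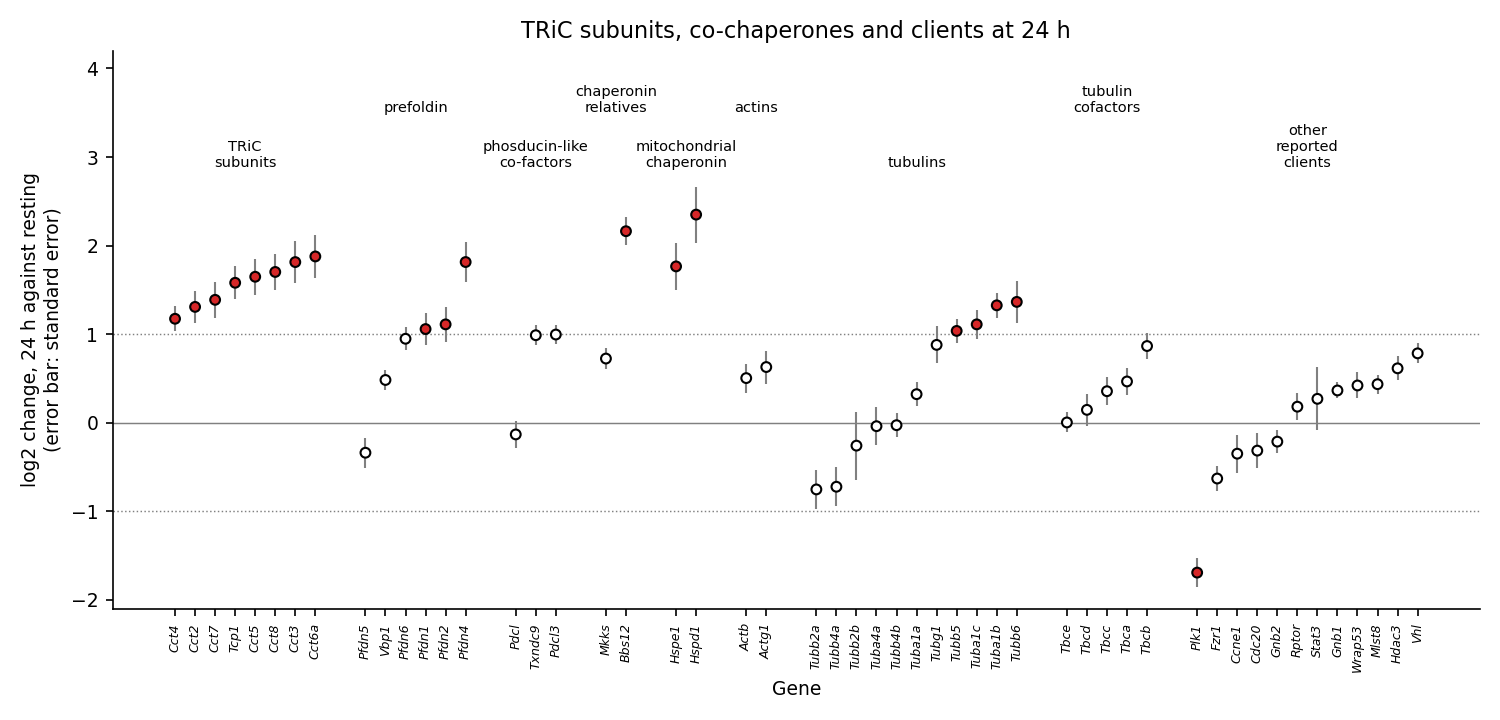
log2 change from rest to 24 h (y axis, log2(RPKM + 0.5), error bars are standard errors from limma) of the TRiC subunits and the genes of 8 lists of partners and clients that passed the filter (x axis); filled red points changed at least 2-fold at an adjusted p under 0.05, and dotted lines mark 2-fold. All 8 TRiC subunits are filled, against 3 of 6 prefoldin subunits, 4 of 11 tubulins and 0 of 2 actins.

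Over the 20 libraries of the time course, each subunit followed the mean of the other 7 closely, with Pearson r between 0.986 (Cct5) and 0.994 (Cct2) on log2(RPKM + 0.5), and between 0.979 and 0.992 over the 18 cultures. The genes outside the complex most like the mean of the 8 were Pa2g4 (r = 0.998), a growth-linked protein that binds ribosomes, Hspa9 (0.997), the mitochondrial Hsp70, Gspt1 (0.997), a translation termination factor, Umps (0.997), an enzyme of pyrimidine synthesis, and Ran (0.996), the GTPase of nuclear transport. Over the 18 cultures alone their r was 0.994 to 0.998. Their log2 changes at 24 h were 2.26 for Pa2g4, 1.95 for Hspa9, 1.55 for Gspt1, 2.25 for Umps and 1.84 for Ran, as against 1.17 to 1.88 for the subunits. The libraries share 1 time course, so many genes follow it: 630 of 10889 genes outside the complex had r over 0.95, and the correlations are a description with no test.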

How the data were processed

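The deposited table holds RPKM for 24 libraries, computed by the authors, in 22010 entries, of which 1 lacks a name and was left out. Submitters' processing notes name BWA and GRCm38, and versions are not given in the sources used here. Values of Cct2, Cct6a and Cct7 stepped by the worth of a single read, so their reads and exact Poisson 95% intervals could be recovered. Depth was found in the same way. For the other 5 subunits no counting interval can be given.

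For all comparisons limma 3.58.1 (R 4.3.3) was used after log2(RPKM + 0.5), which understates low genes. The variance prior followed the mean level, genes averaging under 1 RPKM were dropped, and p-values were adjusted by Benjamini-Hochberg over all genes kept. Time points were compared with rest over 20 libraries, conditions over 18 cultures with time as a factor, and actinomycin as a slope over 4. The fits were tested on simulated data.

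Members and lists were chosen with earlier results of these data known. Named were all members of lists of up to 6 genes, the called members with the largest and smallest change of the longer lists, and the 5 genes most like the subunits. Tuba1b, Tuba1c, Tubb5, Tubb2a, Cdc20 and Rptor were named after their values were seen. Alternatives changed the pseudocount (0.1 or 1), the filter (none, or 5 RPKM), the scaling (3 others), the variance trend or the libraries included. Leaving out Th0 at 8 h, Th2 at 4 h or at 24 h, or both 4 and 8 h, was chosen after seeing the data.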

Additional observations from a re-analysis of the deposited data

Results flagged for a closer look

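At 4 h, 6 of 8 subunits (Tcp1, Cct2, Cct5, Cct6a, Cct7 and Cct8) were below both resting libraries in Th0 and above both in Th2. On the RPKM scale their changes against rest thus had opposite directions in the 2 conditions. Some Th0 values were close to rest, with 158 RPKM for Tcp1 against 163 and 172 RPKM at rest. All RPKM summed to 580573 in Th0 and 633057 in Th2 at 4 h, against 607622 and 604800 at rest. The 8 together took 0.200% of this total in Th0 and 0.284% in Th2, against 0.206 and 0.208% at rest. Cct8 had 226 and 229 RPKM at rest, 186 RPKM in Th0 and 306 RPKM in Th2, and Cct6a had 80.0 and 83.2 RPKM at rest, 61.4 RPKM in Th0 and 101 RPKM in Th2. Cct3 and Cct4 were above both resting libraries in both conditions. The share of all genes with this pattern was not counted. Over the other genes too, Th2 at 4 h was further on the way from rest to 24 h than Th0 (39.3 against 25.8%). With 1 library for each condition and time the difference was not tested.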

How the results depend on the processing

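No subunit's change past the threshold reversed, and all 8 stayed risen at 24 h under every alternative run but quantile normalization, where Cct4 had 0.90 (log2). The median rise at 24 h lay between 1.37 (quantile normalization) and 1.76 (median-of-ratios scaling), which moved the median of all genes from -0.04 to 0.13 and 0.10. The number risen at 8 h was 1 with quantile normalization or without the Th2 cultures and 7 without the Th0 cultures or the Th0 8 h library, and at 12 h it was 5 with quantile normalization. From 4 to 8 h it was 0 without the Th1 cultures, and from 8 to 12 h 1 without the Th2 cultures. For Th2 against Th0 it was 4 without the 4, 8 or 12 h time point, 2 without both 4 and 8 h, and 0 where a 2-fold difference was asked for. After actinomycin it was 0 with no filter on low values and without the 0, 1 or 4 h library, 1 with upper-quartile scaling, and 5 with quantile normalization or without the 2 h library. The causes were not tested. The number of all genes that rose (after actinomycin, that fell) moved by over 1.5 times for several of these: at 4 h from 284 to 551 and at 8 h from 700 to 1076 with quantile normalization, from 4 to 8 h from 1722 to 12 without the Th1 cultures (those that fell went from 1367 to 79), for Th2 against Th0 from 1390 to 624 without 4 and 8 h, and after actinomycin from 1267 to 307 without the 0 h library. It also ranged from 2 to 234 around 37 from 8 to 12 h, from 0 to 34 around 8 from 12 to 16 h, from 0 to 108 around 55 from 16 to 20 h, and from 0 to 112 around 76 from 20 to 24 h. For Th2 against Th1 it ranged from 200 to 596 around 375, and for Th1 against Th0 from 23 to 111 around 56. No paired analysis was possible because only the resting libraries carry replicate numbers. Cultures were matched by time in the comparison of conditions, and with the skewing condition as a covariate in the time steps 8 of 8 subunits rose from 4 to 8 h and 0 of 8 in each later step.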
